A study of Mus musculus with 6 samples.

Results

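The nuclear genes of oxidative phosphorylation were followed in Met-1 TripZ-200c cells cultured without or with doxycycline (Dox). They were found by gene symbol: Nduf for complex I, Sdh for complex II, Uqcr for complex III, Cox4 to Cox8 for complex IV and Atp5 for complex V, leaving out symbols that mark pseudogenes. Of 43548 gene identifiers in the deposited table, 83 were members, with 37 in complex I, 4 in complex II, 8 in complex III, 17 in complex IV and 17 in complex V. Testing required a mean FPKM of 1 or more in the 6 libraries, which 77 members reached, with 36, 4, 8, 12 and 17 in the 5 complexes in turn. FPKM counts the fragments on a gene per length of the gene and per number of mapped reads, so levels of different genes can be compared per length.

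Met-1 is a mammary carcinoma line that derives from a late tumor of an MMTV-PyMT mouse of strain FVB/nJ. The Met-1 TripZ-200c cells of both groups carry a lentiviral vector from which Dox induces miR-200c, a microRNA that holds cells in an epithelial state. They are 1 clone, selected on the red fluorescent tag of the vector. Cells were plated in triplicate and kept for 48 h with water as vehicle (MinusDox, 3 libraries) or with Dox at 1 µg/mL (PlusDox, 3 libraries). Cells with the empty vector were not analysed here, so an effect of Dox itself, which is known to inhibit translation on mitochondrial ribosomes, and an effect of miR-200c cannot be told apart.

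Oxidative phosphorylation takes place in the inner mitochondrial membrane. Complexes I and II take electrons from NADH and succinate, complex III passes them from ubiquinol to cytochrome c, and complex IV passes them on to oxygen. Complexes I, III and IV pump protons out of the matrix, and complex V, the ATP synthase, makes ATP as protons flow back. Apart from complex II, each complex also holds subunits encoded by mitochondrial DNA, so nuclear mRNA levels cover only part of it.

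miR-200c pairs with its targets through the seed, and its mature sequence is shown because each 3′ UTR of the members was searched for the match to it. Capitals mark seed bases 2 to 8. The sequence is from RefSeq and lies on GRCm38.p6 at chr6:124718324-124718346, minus strand.
mmu-miR-200c-3p: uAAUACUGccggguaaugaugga

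The seed match (CAGTATT) stood in the longest annotated 3′ UTR of 3 of the 77 members tested (3.9%), against 16.9% of 10812 genes tested that had an annotated 3′ UTR. The members' 3′ UTRs were short, with a median of 272 bases against 1385.5 bases over all these genes, so the shares are not matched for length. The 3 members all belong to complex I, and their sites are shown with flanks, the match in capitals (for Ndufb2 the first of 3).
Ndufa3: ccaaaattgtCAGTATTgctggcctgg
Ndufb2: tcaatcttcaCAGTATTatttctgttt
Ndufc1: ttcaaaattaCAGTATTtgagattaga
The site of Ndufc1 began at base 507 of a 3′ UTR of 960 bases, that of Ndufa3 at base 93 of 348, and the first of Ndufb2 at base 1991 of 4012. Ndufc1 was among the members whose mRNA was higher with Dox (below), whereas the log2 differences of Ndufa3 (0.17) and Ndufb2 (0.06) did not pass the test. Over all genes tested, those with a site had a median log2 difference of -0.05. The one member that was lower with Dox, Sdhc, had a 3′ UTR of 2636 bases and no match.

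Promoters were compared because the members are transcribed from many chromosomes and 3 transcription factors, NRF1, the GA-binding protein (GABP, an ETS factor) and YY1, are known to act on many of them. RefSeq promoter windows of GRCm38.p6, from 250 bases before to 50 bases after the start, were found for 69 of the 83 members and searched on both strands. The 69 include Cox6b2, Cox7b2 and Cox8b, which were not tested. Members were matched by symbol or synonym and the genes tested by symbol alone, so the shares below come from sets matched in unlike ways. The NRF1 motif was in the windows of 17 members (24.6%), against 5.19% of 27025 genes with a window and 12.5% of the 8548 genes tested that had one. The YY1 motif (AANATGGCG) was in those of 11 members (15.9%), against 2.76% and 6.62%. The ETS motif (CCGGAAGT) was in those of 5 members (7.25%), against 4.31% and 9.97%. By complex, the NRF1 motif was found in 7 of 32 windows of complex I, 2 of 3 of complex II, 1 of 5 of complex III, 1 of 13 of complex IV and 6 of 16 of complex V, and the YY1 motif in 7 windows of complex I and 4 of complex V, with none in complexes II to IV. Such a match is a description of the letters, not of binding.

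The windows of the 4 members that were higher with Dox are shown 5′ to 3′ on the strand of the gene, with motif matches in capitals. They lie at chr3:51408906-51409205 (Ndufc1, minus strand), chr1:58586147-58586446 (Ndufb3, plus strand), chr9:108936398-108936697 (Uqcrc1, plus strand) and chr13:30545267-30545566 (Uqcrfs1, minus strand).
Ndufc1: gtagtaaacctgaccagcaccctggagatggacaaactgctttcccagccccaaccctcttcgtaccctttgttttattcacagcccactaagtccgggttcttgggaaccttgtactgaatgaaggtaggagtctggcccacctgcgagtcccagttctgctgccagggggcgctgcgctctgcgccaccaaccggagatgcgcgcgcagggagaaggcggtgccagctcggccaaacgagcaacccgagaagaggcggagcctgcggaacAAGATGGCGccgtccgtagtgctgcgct
Ndufb3: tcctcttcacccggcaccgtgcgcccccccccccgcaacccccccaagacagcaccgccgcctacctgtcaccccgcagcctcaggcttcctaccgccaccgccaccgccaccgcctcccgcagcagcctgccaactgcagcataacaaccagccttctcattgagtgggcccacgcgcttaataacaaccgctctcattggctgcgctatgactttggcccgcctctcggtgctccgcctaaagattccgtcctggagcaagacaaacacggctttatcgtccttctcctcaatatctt
Uqcrc1: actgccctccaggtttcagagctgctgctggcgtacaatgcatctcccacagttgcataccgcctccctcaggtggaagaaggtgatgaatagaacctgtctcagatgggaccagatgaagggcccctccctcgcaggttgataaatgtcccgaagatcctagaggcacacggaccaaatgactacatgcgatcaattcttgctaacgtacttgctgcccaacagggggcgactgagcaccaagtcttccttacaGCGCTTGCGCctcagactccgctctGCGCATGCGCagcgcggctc
Uqcrfs1: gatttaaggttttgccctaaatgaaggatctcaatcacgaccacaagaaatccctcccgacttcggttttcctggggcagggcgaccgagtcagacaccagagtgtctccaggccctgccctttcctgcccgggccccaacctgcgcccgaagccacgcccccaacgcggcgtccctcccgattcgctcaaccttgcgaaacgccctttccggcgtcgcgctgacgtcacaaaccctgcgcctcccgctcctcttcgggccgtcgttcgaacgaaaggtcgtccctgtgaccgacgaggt
The 4 windows differed in these motifs. Ndufc1 held 1 YY1 match, which began 23 bases after the start. Uqcrc1 held 2 NRF1 matches that did not overlap, at 6 and 31 bases after the start. Neither Ndufb3 nor Uqcrfs1 held any of the 3 motifs. The window of Sdhc was not analysed here.

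The 6 libraries were close to one another, with FPKM sums of 800270 to 815140, and correlations between libraries of 1 group were at least 0.96 over the genes tested (Pearson, on the log2 scale). The table gives no read counts. From the lowest FPKM values, depths relative to MinusDox 1 were between 0.918 (MinusDox 2) and 1.49 (PlusDox 2). The epithelial keratin Krt18 was at 91.2 to 96.4 FPKM without Dox and 364 to 400 FPKM with Dox, and Zeb1, a target of miR-200c, at 41.0 to 42.3 and 19.8 to 23.6 FPKM. The other epithelial markers were low, beside the mesenchymal Vim at 3027 to 4055 FPKM: Epcam had a mean of 0.128 FPKM without and 4.06 FPKM with Dox, and Krt8 reached at most 0.918 FPKM and Cdh1 1.24 FPKM. The gene of miR-200c was listed at 0 in each library. The libraries are of mRNA, so this is not a level of the mature microRNA. By qRT-PCR, the study reported a strong rise of miR-200c with Dox in these cells. Of 8 markers of leukocytes, endothelium, red cells, fat cells and melanocytes, 6 were at or below 0.161 FPKM in each library, while Cd68 was at 6.31 to 11.3 FPKM and Cdh5 at 3.95 to 4.66 FPKM. All 37 mitochondrial genes listed, the 13 mitochondrially encoded subunits among them, were at 0 in each library, so nothing can be said of that share of the complexes.

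Of the 77 members tested, 4 were higher with Dox (Ndufc1, Ndufb3, Uqcrc1 and Uqcrfs1) and 1 was lower (Sdhc), which is 6.49% of them, by limma at an adjusted p under 0.05. Over all 12879 genes tested, 15.0% passed, 7.06% higher and 7.97% lower. Most members are abundant mRNAs, and among the 3573 genes whose mean reached 50 FPKM, 22.1% passed, 11.1% higher and 11.0% lower. The differences of the 5 members lay between a fall of 15.0% and a rise of 26.1%, and none reached 1.5-fold. Without MinusDox 2 or without PlusDox 2, Ndufc1 alone was higher, and without PlusDox 3 Ndufc1 and Uqcrh were. The values are averages over the cells of a culture, so a change in some cells and a change in every cell cannot be told apart.

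Over the 77 members the median log2 difference was 0.02, against 0.00 over all genes tested and 0.02 over the genes of at least 50 FPKM. With 1 library left out it lay between 0.0012 (without PlusDox 2) and 0.041 (without MinusDox 3), with 0.0025 without MinusDox 2, 0.0077 without MinusDox 1 and 0.039 without PlusDox 1. The log2 difference was above 0 in 45 members and below 0 in 32, and the change was under 10% in 63. Precision was high for most, with a median standard error of 0.05 on the log2 scale, and the 95% interval of the difference stayed within 1.5-fold in both directions in 72 members and within 1.25-fold in 64, which is 93.5% and 83.1% of them. Among the genes of at least 50 FPKM these shares were close, at 96.0% and 78.7%. For those 72 members, a change of 1.5-fold or more lies outside the interval. The intervals that went beyond 1.5-fold were those of Ndufs5, Cox6a2, Cox7a1, Cox7c and Atp5l. At an unadjusted p under 0.05 there were 15 members (19.5%), against 29.2% of all genes tested and 38.1% of those of at least 50 FPKM.

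**Figure D1:**
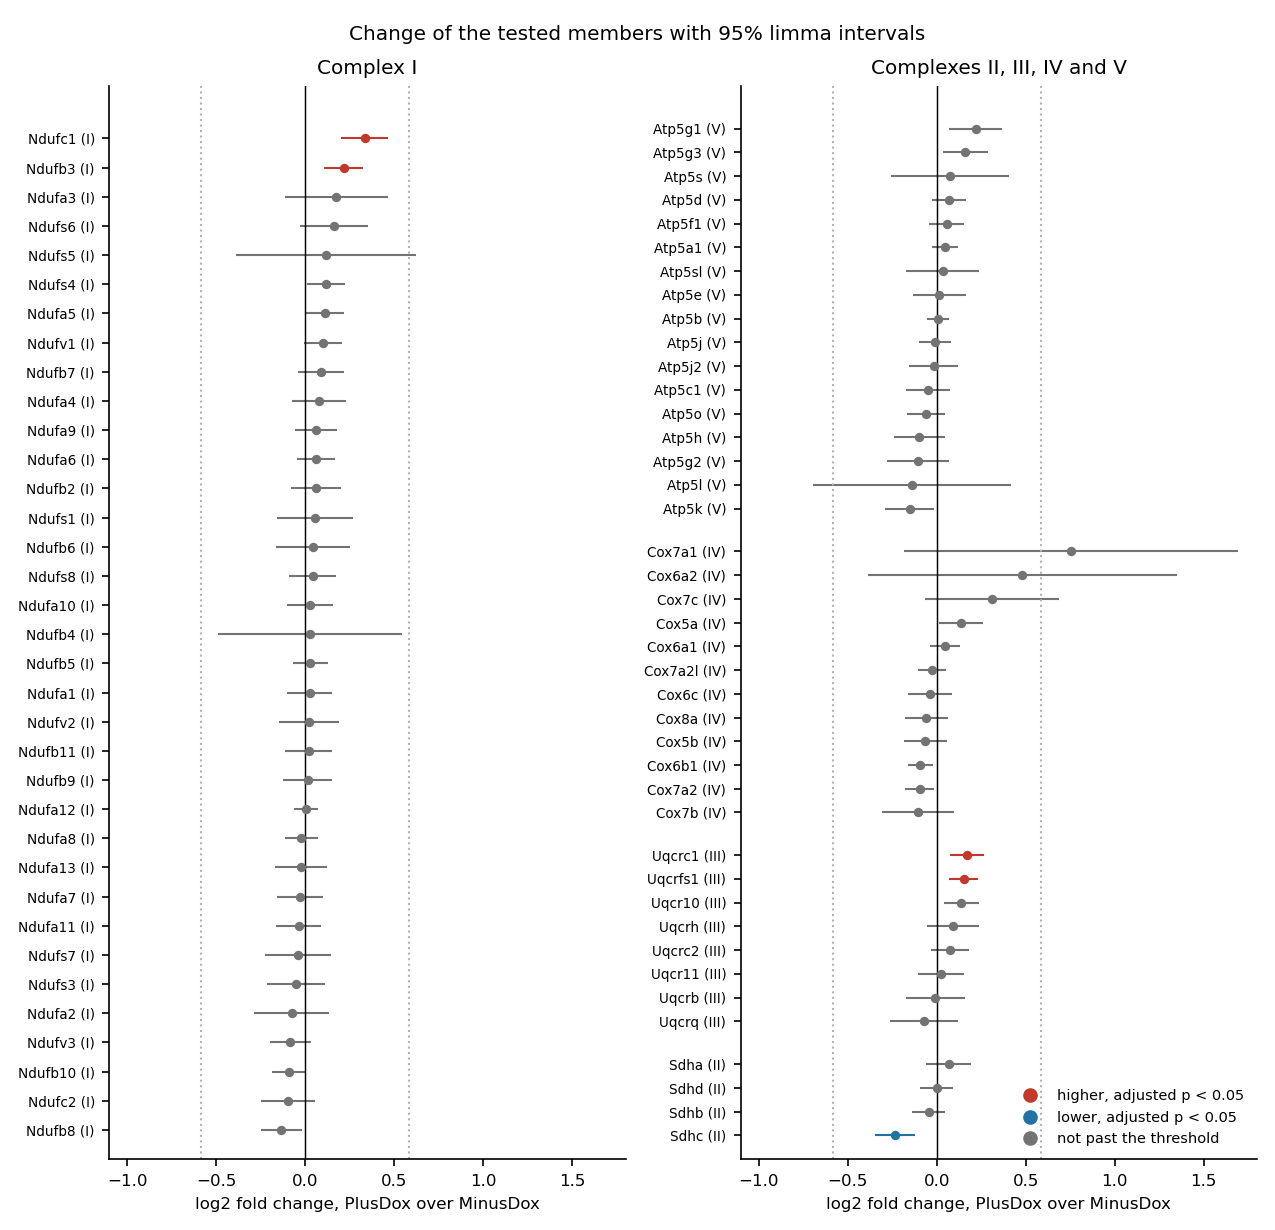
The log2 difference (PlusDox over MinusDox, horizontal axis) of the members tested that are reported here, each with its 95% limma interval; complex I is on the left, the other complexes on the right, and dotted lines mark 1.5-fold. The 4 members higher with Dox (red) and Sdhc (blue) stand clear of 0 by small amounts, and the widest intervals are those of Cox7a1 and Cox6a2, both under 2 FPKM.

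The groups of libraries did not overlap in 13 members (16.9%), 10 with all PlusDox libraries above and 3 with all below. Over the 12875 genes with all 6 values this held for 35.0%, with 17.4% above and 17.6% below. By complex, it held in 4 of 36 members of complex I, 1 of 4 of complex II, 3 of 8 of complex III, 3 of 12 of complex IV and 2 of 17 of complex V.

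**Figure D2:**
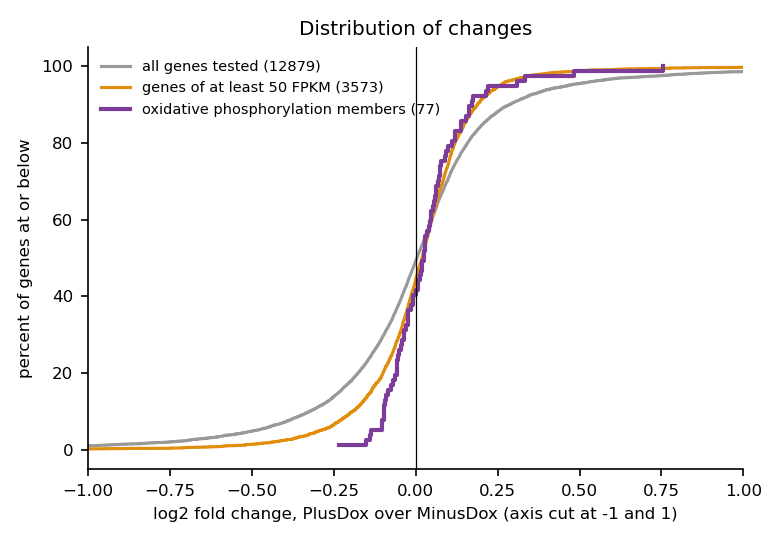
Percent of genes (vertical axis) at or below each log2 difference between PlusDox and MinusDox (horizontal axis, cut at -1 and 1), for the 77 members, the 3573 genes of at least 50 FPKM and all 12879 genes tested. The members' curve is steeper than that of all genes, runs close to that of the genes of at least 50 FPKM above 0, and starts at -0.23 (Sdhc).

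The members were among the abundant mRNAs of these cells. Their median level was 146 FPKM, with 52 members at 100 FPKM or more, 21 between 10 and 100 FPKM and 4 under 10 FPKM. The highest was Atp5b, the catalytic beta subunit of the ATP synthase, at 2372 FPKM, and the lowest of those tested was Cox6a2, the muscle isoform of a complex IV subunit, at 1.55 FPKM.

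In complex I, 2 of 36 members tested (5.56%) were higher with Dox and none was lower, where 15.0% of all genes tested passed. The median log2 difference was 0.03, and with 1 library left out it lay between 0.0041 (without PlusDox 2) and 0.060 (without MinusDox 3), with 0.0046 without MinusDox 2 and 0.015 without MinusDox 1. Ndufc1 (ENSMUSG00000037152, chr3:51404677-51408988, minus strand), a small accessory subunit of the membrane arm, had the smallest adjusted p among the members. The MinusDox libraries held 109.9, 109.7 and 107.8 FPKM and the PlusDox libraries 141.0, 126.4 and 146.3 FPKM. Each PlusDox library was above each MinusDox library, and the PlusDox libraries spread more (109.1 ± 1.19 against 137.9 ± 10.3 FPKM, SD, n = 3 each). The log2 difference was 0.33 (standard error 0.0562, adjusted p = 0.00937). Its transcript shared 10.6% of its length with other genes, 4 of which share at least 10% each, at 95% identity over at least 50 bases.

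Ndufb3 (ENSMUSG00000026032, chr1:58586384-58595964, plus strand), another accessory subunit of the membrane arm, was at 85.5, 85.4 and 91.7 FPKM in the MinusDox libraries and rose to 98.4, 101 and 105.5 FPKM in the PlusDox libraries. The groups did not overlap, though the gap between the highest MinusDox and the lowest PlusDox library was small. The log2 difference was 0.22 (standard error 0.0460, adjusted p = 0.0223). Its transcript shared 37.0% with 1 other gene, Gm45930, for which no FPKM is listed. How reads of that stretch were counted is not known. It did not pass without MinusDox 1, MinusDox 2, PlusDox 2 or PlusDox 3 (adjusted p from 0.0641 to 0.0802).

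The other complex I members did not pass the test. The matrix arm oxidizes NADH and passes electrons along iron-sulfur clusters to ubiquinone. It had 16 members tested, none called, against 15.0% of all genes tested, with a median log2 difference of 0.03. At an unadjusted p under 0.05 there were 2 (12.5%), against 29.2% of all genes tested. Ndufv1, which binds NADH and FMN, was at 72.3, 73.2 and 75.7 FPKM without and 79.3, 82.3 and 75.3 FPKM with Dox, with a log2 difference of 0.10 (interval -0.01 to 0.21). Ndufs1, the largest iron-sulfur subunit, was at 58.5, 54.1 and 61.0 against 52.4, 64.9 and 63.5 FPKM (0.05, interval -0.16 to 0.27). These ranges overlapped, with PlusDox 1 the lowest of the 6 libraries for Ndufs1.

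Ndufs7, which lies next to the ubiquinone site, was at 116.8, 129.4 and 119 FPKM without and 105.5, 128.9 and 121.1 FPKM with Dox. Its log2 difference was -0.04 (interval -0.23 to 0.14), and its ranges overlapped. The matrix arm members closest to the threshold, named after their values were seen, were Ndufs4 and Ndufa5, both accessory subunits. Ndufs4 was at 41.7, 41.6 and 41.9 FPKM without and 44.8, 44.0 and 47.3 FPKM with Dox, and its log2 difference was 0.12 (adjusted p = 0.135). Ndufa5 was at 104, 107 and 113.6 against 116.2, 120.6 and 113.9 FPKM, and its log2 difference was 0.11 (adjusted p = 0.152). In both, each PlusDox library was above each MinusDox library, by a narrow margin in Ndufa5.

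The membrane arm, which carries the proton channels, had 19 members tested, with 2 called (10.5%), against 15.0% of all genes tested. The 2 are the pair described above, and the median log2 difference of the arm was 0.03. The member with the lowest log2 difference there was Ndufb8, at 164.6, 153.2 and 161.6 FPKM without and 141.0, 154.5 and 141.2 FPKM with Dox. Its ranges overlapped through PlusDox 2, and its log2 difference was -0.14 (adjusted p = 0.118). Ndufb4 had the lowest listed level of the complex I members tested, at 6.24 to 10.5 FPKM without and 6.35 to 8.58 FPKM with Dox. Its transcript shared 40.2% with other genes, and how reads of that stretch were counted is not known. Its interval, from -0.49 to 0.55, was the widest of complex I.

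Ndufa4, whose product was first assigned to complex I and is now counted as a subunit of complex IV, was at 233.3, 244.8 and 260.3 FPKM without Dox and 250.4, 283.1 and 245.4 FPKM with Dox. Its log2 difference was 0.08 (adjusted p = 0.495). Its paralog Ndufa4l2, known as a hypoxia-induced gene, was below the level for testing. It was at 0.621 and 0.225 FPKM in MinusDox 1 and 2, at 0.0694 FPKM in PlusDox 2 and listed at 0 in the other libraries.

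Complex II is the succinate dehydrogenase of the citric acid cycle and the one complex without mitochondrially encoded subunits. Sdhc (ENSMUSG00000058076, chr1:171127165-171150603, minus strand), 1 of its membrane anchors, was the one member lower with Dox. It was at 111 FPKM in MinusDox 1, 117.7 FPKM in MinusDox 2 and 105.9 FPKM in MinusDox 3, and at 92.2, 97.6 and 94.5 FPKM in the PlusDox libraries. The groups did not overlap. The log2 difference was -0.23 (standard error 0.0484, adjusted p = 0.0198), a fall of 15.0%. It did not pass without MinusDox 1, MinusDox 2, PlusDox 1 or PlusDox 3 (adjusted p from 0.0538 to 0.0691).

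The 3 other complex II genes did not pass. Sdhd, the second membrane anchor, was at 174.8, 168.5 and 176.5 FPKM without and 167.5, 180.7 and 171.6 FPKM with Dox (log2 difference 0.00, interval -0.09 to 0.09). Sdha, the flavoprotein that binds succinate, was at 123.5, 122.8 and 132.6 against 127.1, 141.4 and 128.6 FPKM (0.07, interval -0.06 to 0.19). Sdhb, the iron-sulfur subunit, was at 145.7, 151.4 and 143.6 against 146.5, 143.4 and 137.3 FPKM (-0.05, interval -0.14 to 0.05). Thus the intervals of the 3 other subunits lay above the log2 difference of Sdhc. The interval of Sdhc itself (-0.35 to -0.12) overlapped that of Sdhb, and the difference between the genes was not tested.

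Complex III had 2 members higher with Dox among 8 tested (25%), and a median log2 difference of 0.08. Over all genes tested 7.06% were higher, and 11.1% of those of at least 50 FPKM. In either direction, 22.1% of the genes of at least 50 FPKM passed. At an unadjusted p under 0.05 there were 3 members (37.5%), against 29.2% of all genes and 38.1% of those of at least 50 FPKM. Uqcrc1 (ENSMUSG00000025651, chr9:108936633-108949623, plus strand), a core protein on the matrix side, was at 209.6, 220.6 and 228.8 FPKM in the MinusDox libraries and at 246.3, 254.4 and 240.8 FPKM in the PlusDox libraries. The log2 difference was 0.17 (standard error 0.0412, adjusted p = 0.0342). Uqcrfs1 (ENSMUSG00000038462, chr13:30540308-30545362, minus strand), the Rieske iron-sulfur protein that takes electrons from ubiquinol, was at 120.3, 114.4 and 119.1 FPKM without and 129.7, 133.2 and 130.5 FPKM with Dox. The log2 difference was 0.15 (standard error 0.0346, adjusted p = 0.0275). Neither shared sequence with another gene by the measure used, and in both the groups did not overlap. With 1 library left out, Uqcrc1 passed without MinusDox 3 and missed the threshold in the other 5 fits (adjusted p from 0.0679 to 0.102), and Uqcrfs1 passed without MinusDox 1 and missed it in the other 5 (0.0600 to 0.0843).

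Of the other complex III genes, Uqcr10, a small subunit named after its values were seen, was at 427.7, 395.5 and 400.8 FPKM without and 463.3, 431.7 and 451.9 FPKM with Dox. Its groups did not overlap, and its log2 difference of 0.14 came with an adjusted p of 0.0680. Its transcript shared 34.9% with other genes. Uqcrc2, the second core protein, was at 125.5, 116.4 and 122.7 against 122.1, 129.2 and 132.6 FPKM (0.07, interval -0.03 to 0.18). Uqcrh, Uqcr11, Uqcrb and Uqcrq had log2 differences of 0.09, 0.03, -0.01 and -0.07, with ranges that overlapped. Uqcrc2, Uqcr11 and Uqcrb shared 26.7%, 28.6% and 39.8% of their transcripts with other genes.

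The median level of the members of each complex was also followed by library. Relative to the mean of the MinusDox libraries, the median log2 difference of the complex III members was 0.10 in each of the PlusDox libraries and between -0.02 and 0.02 in the MinusDox libraries. For the 77 members together it was 0.07 in PlusDox 2, but -0.0035 and -0.0065 in PlusDox 1 and 3. PlusDox 2, the deepest library, held the highest PlusDox value in 49 of the 77 members, and MinusDox 3, the deepest of its group, the highest MinusDox value in 40. Over all genes tested the shift of PlusDox 2 was 0.02. The part of depth in these shifts was not tested.

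**Figure D3:**
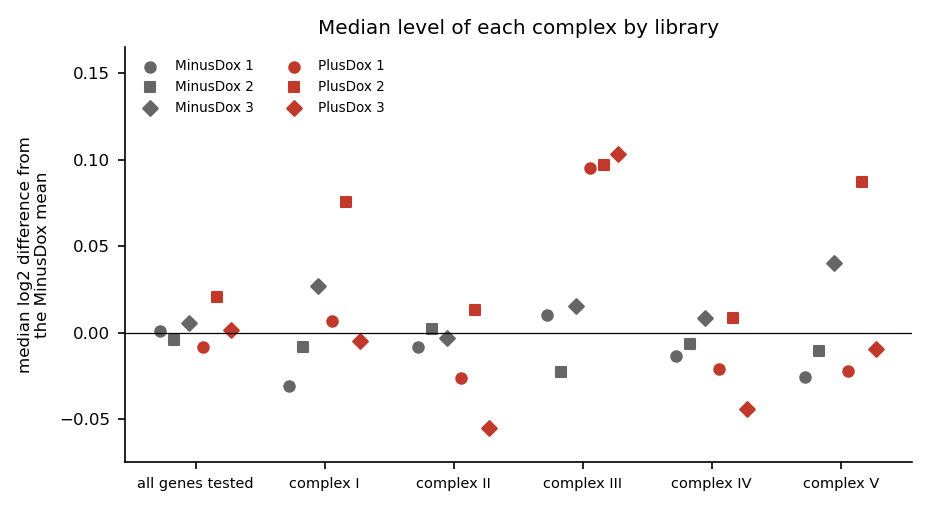
Median log2 difference from the MinusDox mean (vertical axis) over all genes tested and over the members of each complex, for each of the 6 libraries. For complex III the 3 PlusDox libraries (red) lie at about 0.10 and above the 3 MinusDox libraries (grey), for complexes I and V PlusDox 2 (square) stands above the other PlusDox libraries, and for complexes II and IV the groups overlap.

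In complex IV none of 12 members tested passed in either direction by limma, with 3 (25%) at an unadjusted p under 0.05 against 29.2% of all genes, and the median log2 difference was -0.03. Cox4i1 was not analysed here. Cox5a and Cox5b encode peripheral subunits on the matrix side. Cox5a was at 411.7, 437.3 and 408 FPKM without and 441.4, 497.1 and 446.3 FPKM with Dox, with no overlap and a log2 difference of 0.14 (adjusted p = 0.132). Cox5b was at 180.3, 165.8 and 160.6 against 155.5, 167.1 and 162.1 FPKM (-0.06, interval -0.18 to 0.06). Their transcripts shared 14.9% and 50.9% with other genes.

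Cox6b1, which faces the intermembrane space, and Cox7a2, a small membrane subunit, were the 2 members of complex IV with all PlusDox libraries below. Cox6b1 was at 311.4, 299 and 299.5 FPKM without and 279.1, 287.7 and 286.6 FPKM with Dox (log2 difference -0.09, adjusted p = 0.0883). Cox7a2 was at 154.4, 151.3 and 160.0 against 144.7, 148.0 and 143.2 FPKM (-0.10, adjusted p = 0.118). Both differences were small, of about 6%. Cox6c was at 253.8, 282.8 and 285.3 against 270.1, 274.8 and 255.9 FPKM (-0.04, interval -0.16 to 0.09) and shared 12.4% of its transcript. Cox7a2l, whose product is known to join complexes III and IV rather than to serve as a core subunit, was at 92.7, 95.6 and 93.8 against 92.5, 92.7 and 92.0 FPKM (-0.02, interval -0.10 to 0.05) and shared 17.8%.

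Complex IV has isoforms for particular tissues, and in the pairs of Cox6a and Cox7a the general isoform was far above the muscle isoform. Cox6a1 had a mean of 652 FPKM over the 6 libraries and Cox6a2, the heart and muscle isoform, 1.55 FPKM. Cox7a2 had 150.3 FPKM and Cox7a1, also of heart and muscle, 1.90 FPKM. Cox8a had 514 FPKM, Cox6b1 294 FPKM and Cox7b 149 FPKM, while their partners Cox8b, Cox8c, Cox6b2 and Cox7b2 were listed at 0 in each library, as the mitochondrial genes were, so no ratio is given for these. Cox4i2, known as a lung and hypoxia isoform, was at 0.164 and 0.463 FPKM in MinusDox 2 and 3, at 0.101 FPKM in PlusDox 2 and at 0 elsewhere.

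The low isoforms had the largest log2 differences of the members tested and the widest intervals. Cox7a1 was at 1.02, 1.11 and 1.98 FPKM without and 2.66, 1.36 and 3.27 FPKM with Dox, with ranges that overlapped (log2 difference 0.75, interval -0.19 to 1.69). Cox6a2 was at 0.698, 1.53 and 1.75 against 1.64, 1.64 and 2.06 FPKM (0.48, interval -0.39 to 1.35). The general isoforms Cox6a1 (0.05, interval -0.04 to 0.13), Cox8a (-0.06, interval -0.18 to 0.06) and Cox7b (-0.10, interval -0.31 to 0.10) did not pass. Cox6a1, Cox6a2 and Cox7b shared 12.1%, 10.3% and 24.0% of their transcripts with other genes.

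In complex V none of 17 members tested passed in either direction by limma, with 3 (17.6%) at an unadjusted p under 0.05 against 29.2% of all genes, and the median log2 difference was 0.01. The catalytic head and central stalk (5 genes) had a median log2 difference of 0.02 and no member at an unadjusted p under 0.05. Atp5b was at 2355, 2404 and 2339 FPKM without and 2456, 2329 and 2351 FPKM with Dox (0.01, interval -0.05 to 0.07). Atp5a1, the alpha subunit, was at 399.5, 403.8 and 415.6 against 418.2, 431.6 and 410.5 FPKM (0.05, interval -0.02 to 0.12). Atp5c1, the gamma subunit that turns in the center, was at 240.2, 234.9 and 264.8 against 244.1, 241.2 and 228.9 FPKM (-0.05, interval -0.17 to 0.07) and shared 37.5% of its transcript. For these 3 genes the libraries of both groups overlapped and the interval stayed within 1.25-fold.

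The membrane part and peripheral stalk (10 genes) had a median log2 difference of -0.04, with 3 genes above and 7 below 0. Its proton-carrying ring is made of subunit c, which 3 genes encode as the same mature protein. Atp5g3 had the highest listed values of the 3. It was at 331.8, 323.7 and 345.6 FPKM without and 347.8, 400 and 373.7 FPKM with Dox (log2 difference 0.16, adjusted p = 0.0929). Atp5g1 was at 154.1, 144.7 and 167.1 against 192.5, 174.5 and 175.2 FPKM (0.22, adjusted p = 0.0612). Atp5g2 was at 57.3, 65.5 and 53.7 against 53.5, 55.8 and 54.3 FPKM (-0.10, adjusted p = 0.407). The PlusDox libraries were all above the MinusDox libraries in Atp5g1 and Atp5g3 and overlapped with them in Atp5g2, and none of the 3 passed. With 1 library left out, Atp5g1 passed without MinusDox 3 (adjusted p = 0.0397) and Atp5g3 without PlusDox 1 (adjusted p = 0.0402). Atp5g1 and Atp5g2 shared 20.1% and 26.8% of their transcripts with other genes. A pseudogene copy of Atp5g1, Gm10039, had a mean of 349 FPKM, against 168 FPKM for Atp5g1. How reads were shared between them is not known, so the order of the 3 genes by level is not settled.

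Atp5k, a small membrane subunit, had the lowest log2 difference of complex V, at 93.5, 97.0 and 102.2 FPKM without and 82.7, 86.9 and 94.2 FPKM with Dox (-0.15, adjusted p = 0.141), and shared 31.3% of its transcript. Atp5s and Atp5sl carry the symbol pattern but are not core subunits of the enzyme, Atp5s being known as a coupling factor and Atp5sl, also named Dmac2, as an assembly factor of complex I. Atp5s was at 4.61 to 6.31 FPKM without and 5.59 to 6.07 FPKM with Dox, and Atp5sl at 13.9 to 16.2 and 14.0 to 15.8 FPKM. Their log2 differences were 0.08 and 0.03.

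**Figure D4:**
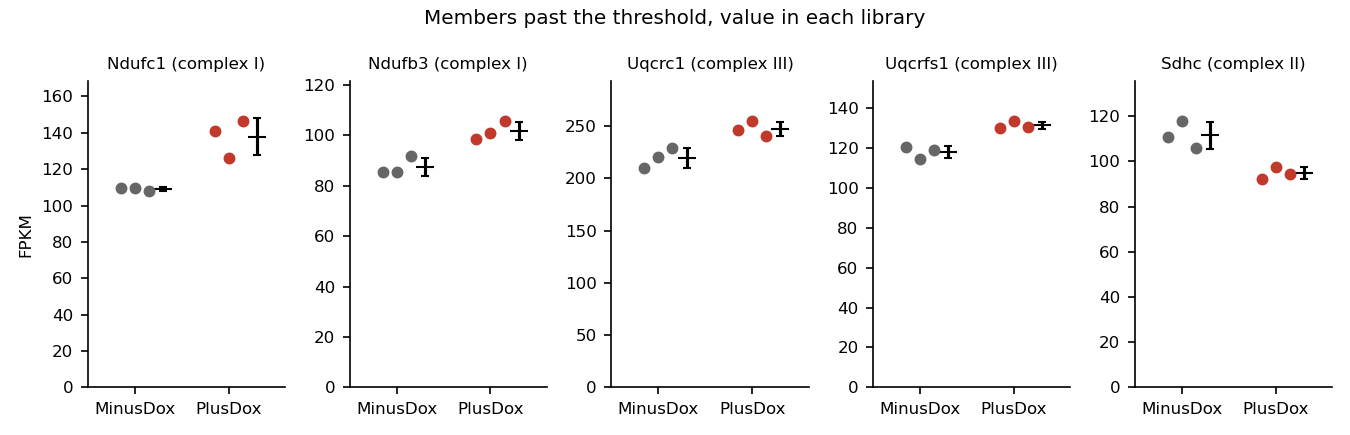
FPKM (vertical axes, starting at 0) of the 5 members past the threshold in each MinusDox (grey) and PlusDox (red) library, with mean and SD (n = 3) to the right of each group. The groups do not overlap in any of the 5, and the largest step, in Ndufc1, is from 109.1 to 137.9 FPKM.

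Many of these genes have processed copies in the mouse genome, and how reads that fit a gene and its copy were shared out is not given in the sources used here. Of the 77 members tested, 34 shared at least 10% of their longest transcript with another gene. Annotated pseudogenes covered over at least 50% of their length by a member, whose mean reached 1 FPKM, numbered 26, from 21 members. In 14 of the 21, a copy had a higher FPKM than the member. For Cox7c the copy Gm12338 had a mean of 2054 FPKM and the member 23.8 FPKM. Atp5h and its copy Gm10250 had 277 and 930 FPKM, and Atp5l and its copy Gm10221 11.1 and 296 FPKM. For these genes the level of the member and that of the copy cannot be told apart.

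**Figure D5:**
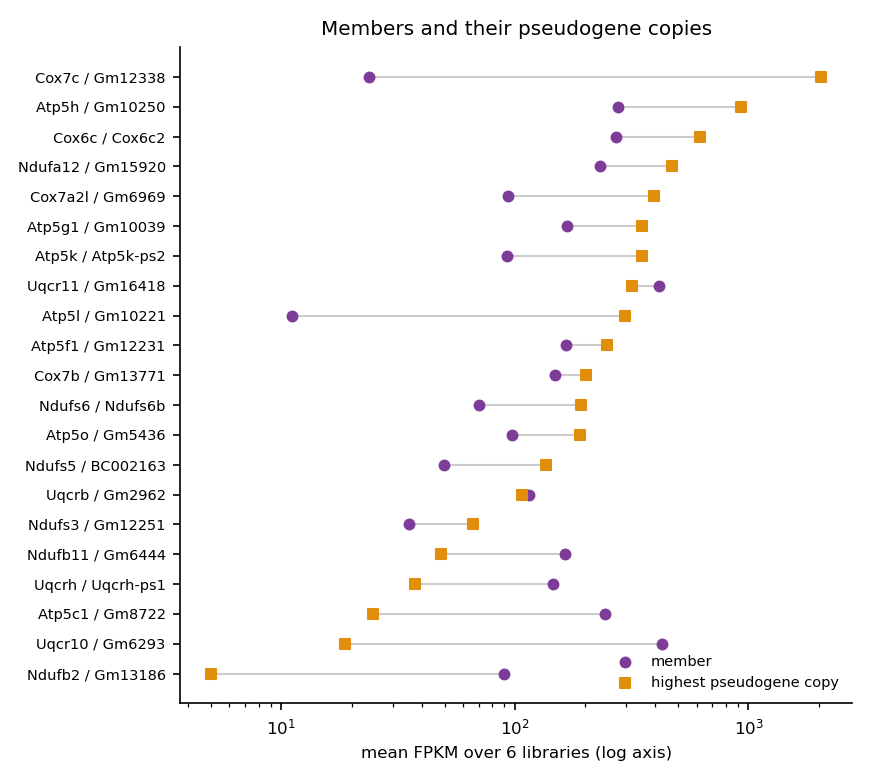
Mean FPKM over the 6 libraries (horizontal log axis) of the 21 members with a pseudogene copy of at least 1 FPKM (circles) and of their highest copy (squares), ordered by the copy. The copy lies above the member in 14 pairs, farthest in Cox7c (2054 against 23.8 FPKM) and Atp5l (296 against 11.1 FPKM).

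Of the 26 copies, 1 was higher with Dox and 2 were lower, where 15.0% of all genes tested passed. Gm12338 was at 1952, 1891 and 1819 FPKM without and 2400, 2063 and 2200.2 FPKM with Dox (log2 difference 0.23, adjusted p = 0.0327), while Cox7c itself was at 17.2, 21.2 and 25.8 against 30.6, 24.6 and 23.7 FPKM (0.31, adjusted p = 0.254). Atp5k-ps2 was at 415.5, 355.7 and 383.6 FPKM without and 299, 335.7 and 302.8 FPKM with Dox (-0.30, adjusted p = 0.0267), and Gm6444, a copy of Ndufb11, at 52.7, 52.6 and 57.5 against 39.7, 46.0 and 40.3 FPKM (-0.37, adjusted p = 0.0146). None of the 5 members past the threshold had such a copy. With the FPKM of the copies added to their member, a setting chosen after the data were seen, 6 members were higher and 2 lower: Uqcr10 (0.20, adjusted p = 0.0135), Cox7c (0.23, adjusted p = 0.0325) and Atp5k (-0.27, adjusted p = 0.0178) joined the 5. Such a sum joins FPKM of transcripts of unlike length, so it is not a level of the member. In Cox7c and Atp5k most of it is the copy (2054 and 349 FPKM, against 23.8 and 92.7 FPKM), which had passed by itself. The copy of Uqcr10, Gm6293, was at 0, 11.7 and 12.6 FPKM without and 35.0, 28.0 and 25.5 FPKM with Dox. By itself Gm6293 did not pass by limma (adjusted p = 0.228).

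Other genes of the pathway were read against the same shares, 15.0% of all genes tested and 22.1% of those of at least 50 FPKM. Of 8 electron carriers and subunits outside the symbol patterns, 1 was higher with Dox, Atpif1, the inhibitor of the ATP synthase, at 237, 229.5 and 231.9 FPKM without and 260.1, 256 and 262.8 FPKM with Dox (log2 difference 0.16, adjusted p = 0.0115). It shared 38.3% of its transcript with another gene. Of 47 assembly factors, 2 were higher and 1 lower (6.38%), with a median log2 difference of 0.05. Cox17, which carries copper to complex IV, was at 137.2, 137.2 and 156.3 against 173.5, 170.2 and 183.2 FPKM (0.29, adjusted p = 0.0185). Atpaf2, which helps assemble the head of the ATP synthase, had a log2 difference of 0.29 (adjusted p = 0.0328). Ndufaf2, which assists complex I and shared 81.3% of its transcript, had one of -0.25 (adjusted p = 0.0383). With 1 library left out, Atpaf2 passed without PlusDox 3, Ndufaf2 without PlusDox 2, and Cox17 without MinusDox 3 or PlusDox 2. In the other fits of this kind they missed the threshold (adjusted p from 0.0536 to 0.122), and Atpif1 missed it without PlusDox 3 (0.0525).

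Of 18 genes of the citric acid cycle and pyruvate dehydrogenase, 1 was higher and none lower (5.56%), where 15.0% of all genes tested passed in either direction. It was Suclg1, a subunit of succinyl-CoA synthetase (0.20, adjusted p = 0.0167). Of 10 mitochondrial chaperones and proteases, 2 were higher (20%) and none was lower. Over all genes tested 7.06% were higher, and 11.1% of those of at least 50 FPKM. The 2 were the chaperonin Hspd1 (0.26, adjusted p = 0.00485) and Hspa9, the Hsp70 of the matrix (0.13, adjusted p = 0.0163). At an unadjusted p under 0.05 there were 6 (60%), against 29.2% of all genes and 38.1% of those of at least 50 FPKM. All 10 log2 differences were above 0, with a median of 0.11. This held for 6541 of 12879 genes tested and 1988 of 3573 genes of at least 50 FPKM. Hspd1 shared 71.1% of its transcript with another gene. With 1 library left out, Hspd1 passed in all 6 fits, Suclg1 missed the threshold without any 1 of the PlusDox libraries (adjusted p from 0.0513 to 0.0557), and Hspa9 passed without MinusDox 3 or PlusDox 2 and missed it in the other 4 (0.0512 to 0.0627). For comparison, 7 of 77 mitochondrial ribosomal proteins passed (6 higher, 1 lower) and 4 of 93 cytosolic ribosomal proteins (all higher). These are 9.09% and 4.30%, against 15.0% of all genes tested, with median log2 differences of 0.04 and 0.07.

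Among 15 regulators of mitochondrial biogenesis and mtDNA expression, 1 was higher and 1 lower (13.3%), against 15.0% of all genes tested. These 2 encode the partners of 1 factor, GABP. Gabpb1, the activating beta subunit (ENSMUSG00000027361, chr2:126627442-126676337, minus strand), was at 29.0, 26.6 and 28.3 FPKM without and 35.5, 36.2 and 38.0 FPKM with Dox (log2 difference 0.39, adjusted p = 0.00485). Gabpa, the DNA-binding alpha subunit (ENSMUSG00000008976, chr16:84834925-84863779, plus strand), was at 30.5, 29.5 and 30.6 FPKM without and 26.9, 24.9 and 23.5 FPKM with Dox (-0.27, adjusted p = 0.0315). In both genes the groups did not overlap. With 1 library left out, Gabpb1 passed in all 6 fits, whereas Gabpa passed without PlusDox 1 and missed the threshold in the other 5 (adjusted p from 0.0681 to 0.0968). The annotated transcripts of Gabpa and Atp5j overlap on opposite strands (29.7% of the transcript of Atp5j), and whether strand was used in counting is not given in the sources used here. Atp5j, a stalk subunit of the ATP synthase, was at 153.3, 151.2 and 152.5 against 149.7, 158.4 and 146.7 FPKM (-0.01, interval -0.10 to 0.08). Nrf1 and Tfam, which activate nuclear and mitochondrial genes of the pathway, had log2 differences of 0.08 and 0.05 (adjusted p = 0.669 and 0.842), and Ppargc1a was below the level for testing.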

How the data were processed

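mRNA of 6 libraries (3 MinusDox, 3 PlusDox) was prepared with a stranded kit. The authors used gSNAP for mapping and deposited the FPKM of each gene and library as estimated with Cufflinks (versions are not given in the sources used here). The build is GRCm38.p6 per the labels, and the methods also name an FVB/NJ assembly. The table also holds group means, fold changes, p-values and q-values of the authors, which were not used. FPKM removes depth, and the reads behind a value are not known.

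Of 43611 rows, 63 that repeat an identifier were dropped, keeping the row with the highest mean, and 6 placeholder values were treated as missing. The 12879 genes whose mean reached 1 FPKM entered limma 3.58.1 (R 4.3.3) as log2(FPKM + 0.1), with group as the only term of lmFit, a trend in eBayes and Benjamini-Hochberg adjustment over all of them at a threshold of 0.05. Fold changes on this scale understate those of low genes. Members under the filter are described by their values. Groups and replicate numbers were taken from the labels. P-values measure the spread between libraries of plated triplicates of 1 clone, and permuting 3 against 3 libraries cannot give a p below 0.1.

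The members, the gene lists and the rule for naming genes were chosen with earlier results of these data known. Named were members past the threshold, a fixed set of core subunits, isoforms with their partner, and of each list up to 4 genes past the threshold with the lowest adjusted p. A result for 1 member of the fixed set is not reported here. The other members and genes named were chosen after their values were seen. Transcripts, 3′ UTRs and coordinates are from GENCODE M21 (GRCm38), and BLAST 2.17.0 gave shared sequence (95% identity, 50 bases or more). The model was tested on simulated data. Python 3.11.15 was used for annotation and plots.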

Additional observations from a re-analysis of the deposited data

How the results depend on the processing

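The replicate numbers of the labels were not found to pair the libraries: across genes, departures from the group mean in libraries with equal numbers correlated at 0.0287, 0.0359 and -0.00759, and MinusDox 1 and 2, but not MinusDox 3, correlated best with the PlusDox library of their own number. With the replicate number as a block, 3 members were higher and 1 lower, since Uqcrc1 and Uqcrfs1 were lost and Uqcr10 joined, and besides these the block changed the call of Atpaf2, Ndufaf2 and Gabpa among the genes named. The count of 4 higher members became 1 with limma without the trend, with an unmoderated linear model per gene on log2(FPKM + 1), and at an adjusted p under 0.01, 2 among the 43 members sharing under 10% of their sequence, and 0 at a minimum of 1.5-fold. The count of 1 lower member became 0 in each of these except among the 43 members, and 2 with the copies added. Sharing was measured on the longest transcript. The 43 members still include Uqcrh and Ndufb2, which had copies (Uqcrh-ps1 and Gm13186, at 37.3 and 4.99 FPKM). Leaving out 1 library gave 1 to 4 higher and 0 to 1 lower members: 1 was higher without MinusDox 2 or PlusDox 2 and 2 without PlusDox 3, and 0 were lower without MinusDox 1, MinusDox 2, PlusDox 1 or PlusDox 3. Ndufc1 passed in 16 of 17 alternatives (adjusted p from 0.00392 to 0.0574), Ndufb3 and Sdhc in 10, Uqcrfs1 in 9 and Uqcrc1 in 7. The median of complex III lay between 0.0603 (without PlusDox 2) and 0.0929 when libraries were left out, with 0.068 without MinusDox 2, and 0.08 otherwise except 0.07 with quantile normalization. The median of complex V ranged from -0.04 to 0.03 when libraries were left out. Signs changed for members near 0: without 1 library, Ndufs1 ranged from -0.0024 to 0.15, Ndufs7 from -0.11 to 0.039, Sdhd from -0.031 to 0.024, Atp5b from -0.016 to 0.022 and Atp5c1 from -0.084 to 0.0025, and Sdhd was 0.0013 with median scaling. The causes were not tested. FPKM is relative to all mapped reads, so a change shared by all mRNAs cannot be seen.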
